A study of Mus musculus with 6 samples.

Results

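The genes described here are 10 of the 33460 genes in the deposited expression files: the transcriptional co-activators *Yap1* and *Wwtr1* (which encodes TAZ), the DNA-binding factors *Tead1*, *Tead2*, *Tead3* and *Tead4*, the kinase *Lats2*, and the target genes *Ctgf*, *Cyr61* and *Ankrd1*. They were chosen by name as the output arm of the Hippo pathway, and their Ensembl identifiers were matched to the symbols of the NCBIM37 annotation, where CCN2 and CCN1 still carry the names *Ctgf* and *Cyr61*. All 10 were found, and 9 of them were among the 14801 genes expressed highly enough to be tested; the tenth, *Ankrd1*, was close to absent. RNA-seq was performed on 3 libraries of FACS sorted mural cells and 3 libraries of microvascular fragments, made from brain of *Pdgfrb-eGFP/NG2-DsRed* animals taken at P6, that is, 6 days after birth. All animals carried both transgenes, eGFP under the *Pdgfrb* promoter (line Tg(Pdgfrb-eGFP)JN169Gsat/Mmucd) and DsRed under the *NG2* promoter, and no treatment was given. Mural cells, which are pericytes (PC) and vascular smooth muscle cells, were sorted as positive for both reporters after collagenase digestion. Fragments were pulled out of digested tissue with magnetic beads against CD31 and hold endothelial cells (EC) and mural cells together, so they are a mixture that contains the cells they are compared with. Per the methods, the brains of 3 mice were split, with one side used for sorting and the other for fragments, but the labels do not say whether libraries of the same number came from the same mouse.

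In the Hippo pathway, the kinases MST1 and MST2 activate LATS1 and LATS2, which phosphorylate YAP and TAZ and hold them in the cytoplasm. Unphosphorylated YAP and TAZ enter the nucleus, bind TEAD factors on DNA and switch on target genes, among them the secreted matricellular proteins CTGF and CYR61. This regulation acts largely on the protein and its location, which RNA levels do not report. The pathway responds to cell contact, tension and stiffness, and is known for its role in the growth of vessels and in smooth muscle.

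The label of each group was checked first against marker genes. For scale, 9.34% of all genes tested were higher in the mural cells and 13.0% lower at an adjusted p under 0.05 (limma). All 12 mural cell markers were higher in the sorted cells, with differences on the log2(FPKM + 1) scale from 2.67 for *Cspg4*, which encodes NG2, to 3.53 for *Acta2*, the smooth muscle actin. *Pdgfrb*, the PDGF-B receptor of mural cells, whose promoter drove a reporter of the sort, had an FPKM (the number of sequenced fragments, scaled to transcript length and library size) of 54.8, 46.8 and 34.6 in the fragments and 461, 474 and 401 in the mural cells. The sorted libraries were not free of EC transcripts: 7 of 12 EC markers were lower and none were higher at an adjusted p under 0.05, but the list had a summed FPKM of 1671 to 2178 in the mural cells against 2303 to 2679 in the fragments, and *Pecam1*, which encodes CD31, had 272, 221 and 208 against 378, 371 and 365. Of the other lists, those of microglia and fibroblasts also moved with the groups. The 8 microglia markers fell, from a summed FPKM of 1564 to 1806 down to 108 to 166, and the 7 fibroblast markers tested all rose, from 86.6 to 92.1 up to 536 to 717, with *Dpt* at or near 0 throughout. *Pdgfra* and *Fbln1* rose least, with ratios of 1.59 and 1.62, against 6.17 to 12.9 for the others tested. *Col1a2* and *Col3a1* are in the paper's catalogue of mural cell-enriched genes, which drew in part on these same libraries. The part of fibroblasts in the rise was not tested. Astrocyte markers summed to 624 in mural library 3, against 148 to 311 in the other 5 libraries, and 6 of the 8 had their highest value there. The fragment libraries were deeper, with about 5.43 to 5.95 M fragments on protein-coding genes against 1.04 to 2.37 M in the mural cells.

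For the members that have a start site in the RefSeq promoter table (GRCm38.p6, a later build than that of the expression files), the sequence around the start was searched for GGAATG, the core of the TEAD site, on both strands. A window of 250 bases before to 50 bases after the start was present for 7 of the 10 members, and *Tead1*, *Tead4* and *Ctgf* were not in the table. The core was found for 6 of the 7 (*Yap1*, *Wwtr1*, *Tead3*, *Lats2*, *Cyr61* and *Ankrd1*), while 16.6% of all 27025 genes in the table held it, counting every window of a gene. The match of *Lats2* lay just after the start, and *Tead2* had none. A match of 6 letters is a description of the sequence and not evidence of binding. The AP-1 motif TGANTCA, which 8.97% of all genes held, and the CArG box of serum response factor, which 1.81% held, were found in none of the 7, so no match overlapped one of another motif. The 250 bases before the start are shown for the target genes *Cyr61* and *Ankrd1*, which differ most in level, and for 1 of the 3 starts of *Tead3*, the factor with the largest difference between the groups. Capitals mark the TEAD core, which reads CATTCC where it lies on the opposite strand. All 3 genes are on the minus strand, and the sequences are given 5′ to 3′ along the gene, for *Cyr61* from chr3:145649986-145650235, for *Ankrd1* from chr19:36119845-36120094 and for *Tead3* from chr17:28350601-28350850.
Cyr61: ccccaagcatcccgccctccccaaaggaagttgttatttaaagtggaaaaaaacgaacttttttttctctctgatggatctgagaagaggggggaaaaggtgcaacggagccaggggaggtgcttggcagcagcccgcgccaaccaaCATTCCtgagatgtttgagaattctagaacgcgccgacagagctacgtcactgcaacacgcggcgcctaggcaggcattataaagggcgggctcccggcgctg
Ankrd1: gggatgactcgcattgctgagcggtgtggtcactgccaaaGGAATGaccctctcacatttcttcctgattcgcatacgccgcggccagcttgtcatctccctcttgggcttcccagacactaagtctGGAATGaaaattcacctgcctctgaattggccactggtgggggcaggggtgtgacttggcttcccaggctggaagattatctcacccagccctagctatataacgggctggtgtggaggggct
Tead3: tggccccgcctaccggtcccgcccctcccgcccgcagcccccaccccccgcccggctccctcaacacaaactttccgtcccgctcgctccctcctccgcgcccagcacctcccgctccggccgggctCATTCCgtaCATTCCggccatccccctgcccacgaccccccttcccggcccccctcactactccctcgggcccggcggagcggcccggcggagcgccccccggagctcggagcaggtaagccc
The core began 103 bases before the start in *Cyr61* and 210 and 123 bases before it in *Ankrd1*. In this *Tead3* window it began 123 and 114 bases before the start, and another match lay just past it.

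Of the 9 members tested, 5 were higher in mural cells than in fragments, 1 was lower and 3 did not pass the test. *Tead1*, *Tead2*, *Tead3*, *Lats2* and *Ctgf* were higher and *Cyr61* was lower, while *Yap1*, *Wwtr1* and *Tead4* were not called. Genes were called at an adjusted p under 0.05 in limma on log2(FPKM + 1), with Benjamini-Hochberg adjustment over all 14801 genes. The background was 9.34% of all genes called higher and 13.0% called lower. With a ratio of mean FPKM above 2 as well, 2 members remained higher, *Tead3* and *Ctgf*, against 6.43% of all genes, and with a ratio under 0.5 *Cyr61* remained lower, against 10.1%. The median difference of the members was 0.58 on the log2(FPKM + 1) scale and that of all genes was -0.12. In bulk libraries, a smaller number of cells of a type and less RNA per cell cannot be told apart. The groups also differed in preparation, since the mural cells were dissociated to single cells and sorted, while the fragments were bound to beads. In this design, preparation and cell type cannot be told apart. The p-values measure the spread between libraries, since nothing in the labels ties a library to an animal.

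**Figure D1:**
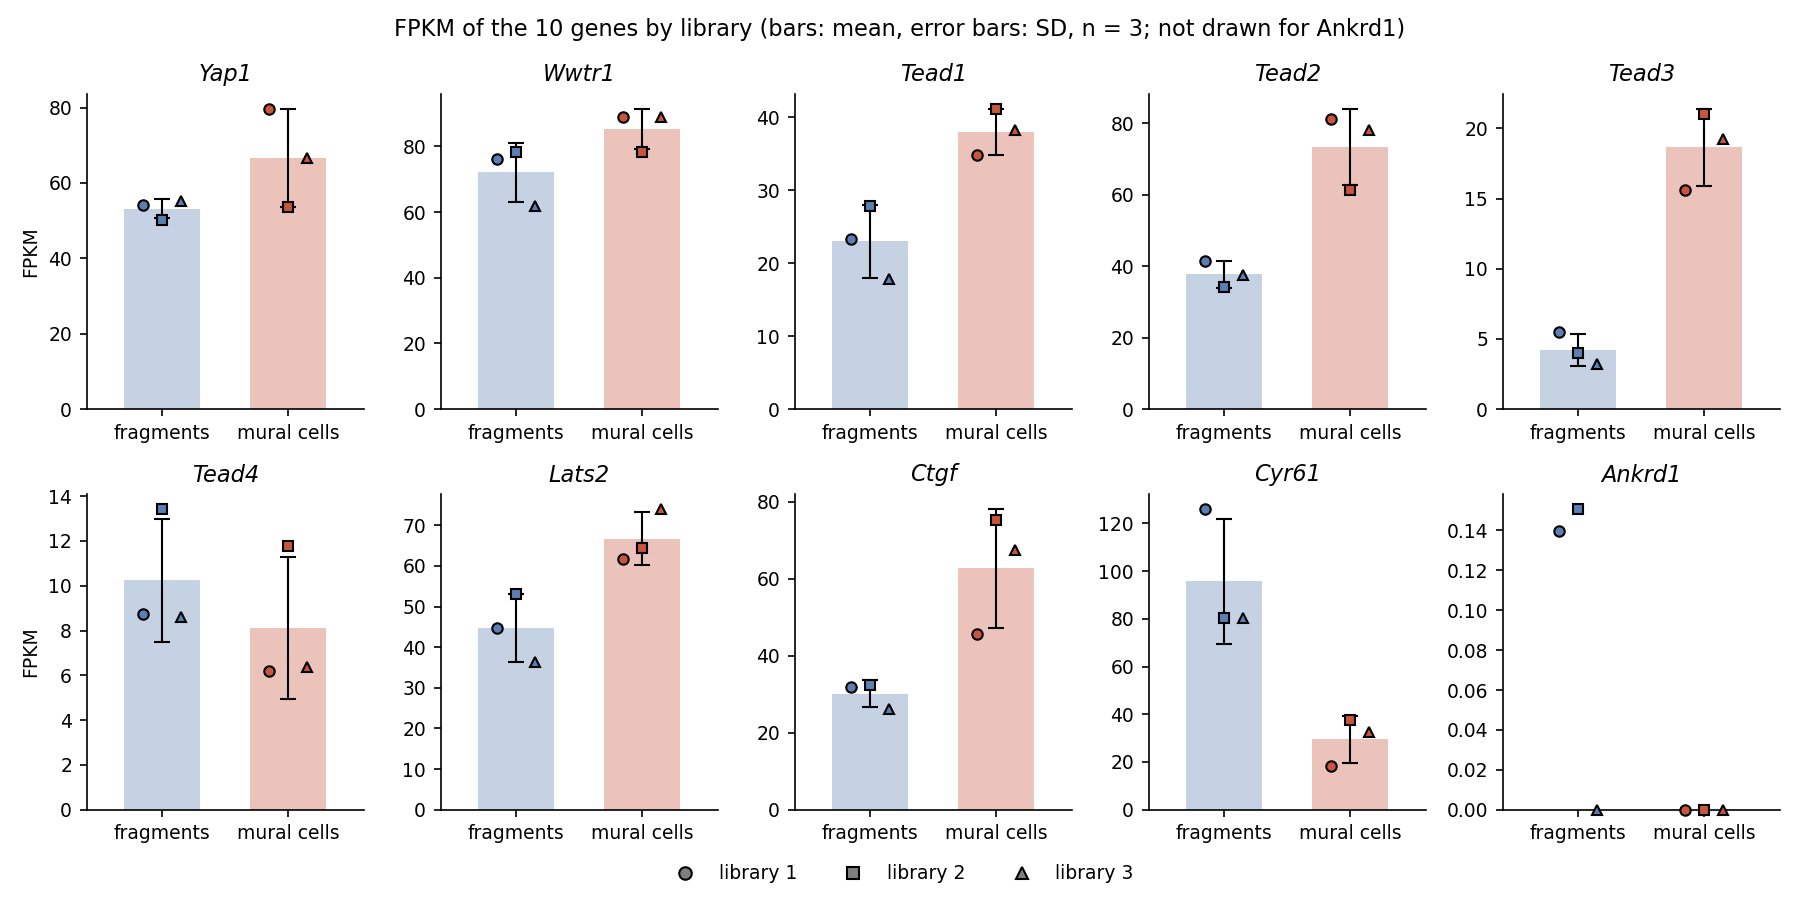
FPKM of each member in the 3 libraries of microvascular fragments (blue) and the 3 libraries of mural cells (red). Bars give the mean and error bars the SD (n = 3), each panel has its own axis from 0, and no bar is drawn for *Ankrd1*. The groups are apart for *Tead3* (3.21 to 5.47 against 15.6 to 21.1) and, the other way, for *Cyr61* (80.4 to 126 against 18.2 to 37.5), and they overlap for *Yap1* and *Tead4*.

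*Yap1* (ENSMUSG00000053110, NCBIM37 chr9:7931999-8004596, minus strand), the main effector of the pathway, was well expressed in both groups. Its FPKM was 54.2, 50.3 and 55.1 in fragments 1, 2 and 3 and 79.7, 53.7 and 66.5 in mural cells 1, 2 and 3. Mural library 2 lay inside the range of the fragments and the others lay above it. The ratio of means was 1.25, and the difference of 0.30 ± 0.16 (SE, log2(FPKM + 1)) did not pass the test (limma, adjusted p = 0.221). *Wwtr1* (ENSMUSG00000027803, chr3:57259571-57379832, minus strand), which encodes the paralog TAZ, was at 76.0, 78.3 and 61.9 in the fragments and at 88.8, 78.3 and 89.0 in the mural cells. The lowest mural library and the highest fragment library were almost equal, and the difference of 0.25 ± 0.13 was not called either (adjusted p = 0.229). Within a library, the ratio of *Yap1* to *Wwtr1* FPKM was 0.713, 0.642 and 0.891 in the fragments and 0.898, 0.686 and 0.747 in the mural cells. TAZ transcripts thus had the higher FPKM in each of the 6 libraries, and the mean ratios of 0.749 ± 0.128 and 0.777 ± 0.109 (SD, n = 3) differed by less than the spread between libraries (exact two-sided permutation test of the log2 ratios, p = 0.7). A noncoding transcript, RP23-349N15.1, overlaps *Yap1* on the other strand with an FPKM of at most 3.0, and a pseudogene, Gm16016, overlaps *Wwtr1* with at most 5.51. Whether reads were assigned by strand is not given in the sources used here.

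Of the TEAD factors, which bring YAP and TAZ to DNA, *Tead1*, *Tead2* and *Tead3* were called higher and *Tead4* was not called. *Tead1* (ENSMUSG00000055320, chr7:119822832-120050319, plus strand) had an FPKM of 23.3, 27.8 and 17.9 in the fragments and 34.8, 41.1 and 38.2 in the mural cells. The groups did not overlap, the ratio of means was 1.65, and the difference was 0.72 ± 0.18 (adjusted p = 0.0286). This call was lost when any of 4 libraries was left out, with an adjusted p of 0.0925 without fragments 1, 0.0968 without fragments 3, 0.0666 without mural 2 and 0.0593 without mural 3, and without the intensity trend (0.0515). *Tead2* (ENSMUSG00000030796, chr7:52471123-52489005, plus strand) was the most abundant TEAD gene in both groups, with 41.6, 34.1 and 37.5 in the fragments and 81.0, 61.3 and 78.1 in the mural cells. Each mural library was above all fragment libraries, with a ratio of 1.95 and a difference of 0.94 ± 0.15 (adjusted p = 0.00431). *Cd37*, a tetraspanin gene of leukocytes, overlaps *Tead2* on the other strand, and its FPKM was 39.4, 42.4 and 50.6 in the fragments against 2.89, 1.09 and 3.91 in the mural cells, so reads of the pair are uncertain if strand was not used.

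*Tead3* (ENSMUSG00000002249, chr17:28468616-28487750, minus strand) showed the largest difference of the members. Its FPKM was 5.47, 4.0 and 3.21 in the fragments and 15.6, 21.1 and 19.3 in the mural cells, which rested on about 48 to 81 and 49 to 90 fragments per library. The lowest mural library was well above the highest fragment library. The ratio of means was 4.41 and the difference was 1.92 ± 0.24 (adjusted p = 0.0015). The difference stayed between 1.78 and 2.14 under every alternative run. *Tead4* (ENSMUSG00000030353, chr6:128174306-128250841, minus strand) went the other way in its mean, with 8.73, 13.4 and 8.58 in the fragments and 6.19, 11.8 and 6.37 in the mural cells. In each group library 2 was the highest, the groups overlapped, and the difference of -0.33 ± 0.31 was not called (adjusted p = 0.492). The mural values rested on about 14 to 32 fragments per library and those of the fragments on about 115 to 163.

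Added up, the 4 TEAD genes came to an FPKM of 79.1, 79.3 and 67.2 in the fragments and 138, 135 and 142 in the mural cells. *Tead3* took 6.92, 5.04 and 4.78% of it in the fragments and 11.4, 15.6 and 13.6% in the mural cells, a mean of 5.58 ± 1.17% against 13.5 ± 2.1% (SD, n = 3). *Tead4* took 11, 16.9 and 12.8% in the fragments and 4.5, 8.71 and 4.49% in the mural cells, a mean of 13.6 ± 3.0% against 5.90 ± 2.44%. For *Tead3* and *Tead4* the groups did not overlap, and the exact two-sided permutation test gave p = 0.1 for each, the smallest p that 3 libraries against 3 allow (0.3 after adjustment over the 6 within-library quantities tested), so neither share passed a test. The shares of *Tead1* (30.4 ± 4.3% and 27.5 ± 2.6%, exact permutation p = 0.5) and *Tead2* (50.5 ± 6.7% and 53.1 ± 7.0%, p = 0.6) overlapped between the groups. By its mean share, *Tead3* was the lowest of the 4 in the fragments and *Tead4* the lowest in the mural cells.

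**Figure D2:**
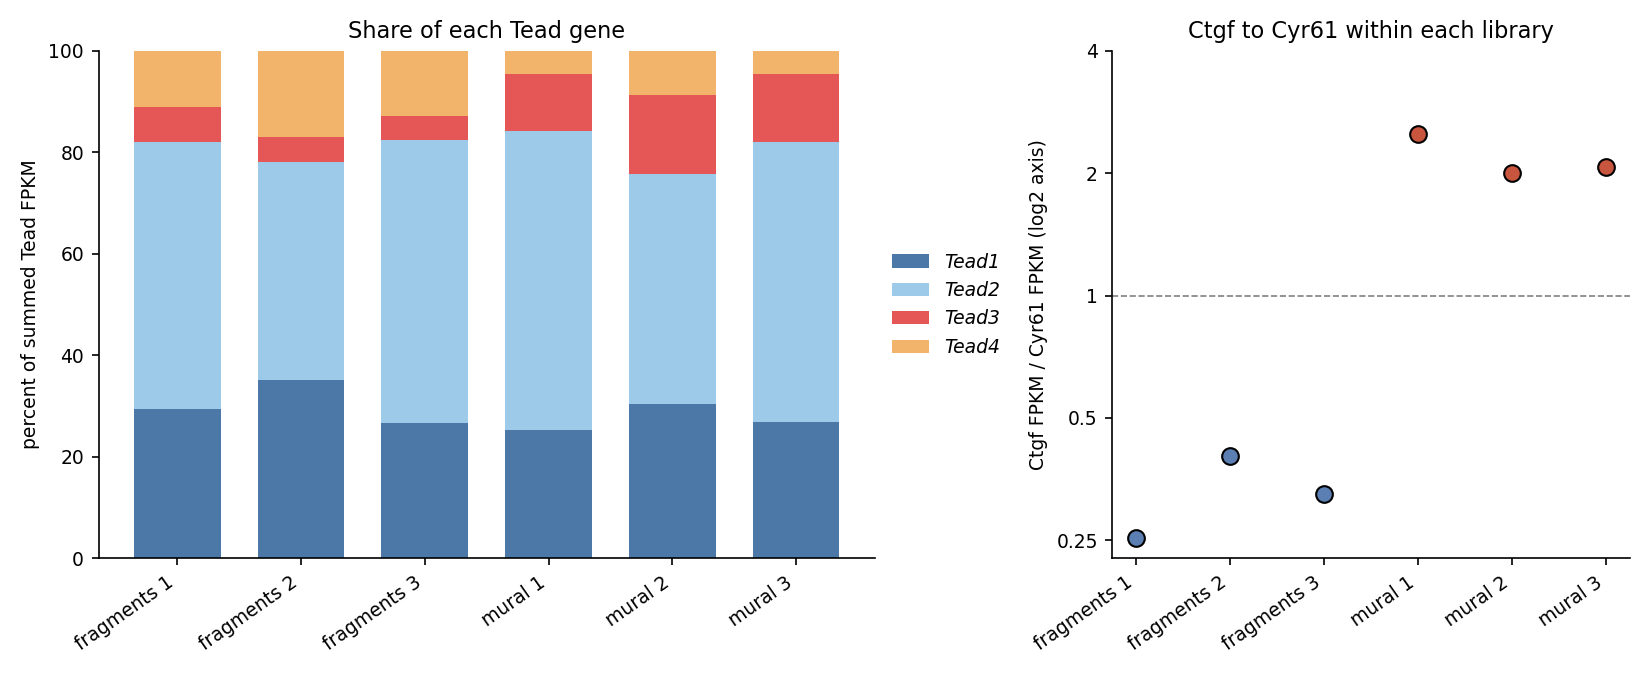
Left, the share of each TEAD gene in the summed FPKM of the 4 genes, in percent, for each library. Right, the FPKM of *Ctgf* divided by that of *Cyr61* in each library, on a log2 axis, with the dashed line at a ratio of 1. *Tead3* takes 4.78 to 6.92% in the fragments and 11.4 to 15.6% in the mural cells, and the ratio lies between 0.253 and 0.403 in the fragments and between 2.01 and 2.50 in the mural cells.

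*Lats2* (ENSMUSG00000021959, chr14:58260914-58377225, minus strand), a kinase that inhibits YAP and TAZ and is itself a target gene of YAP, had an FPKM of 44.6, 53.0 and 36.3 in the fragments and 61.8, 64.3 and 74.0 in the mural cells. The groups did not overlap, with a ratio of 1.5 and a difference of 0.58 ± 0.16 (adjusted p = 0.0412). Of the members called it was the nearest to the threshold: 9 of 13 alternatives ended the call, including each library left out except fragments 2 (adjusted p = 0.0577 to 0.140) and quantile normalization (0.0631). Its paralog *Lats1* was at 24.3, 23.3 and 24.0 in the fragments and 26.2, 28.5 and 19.0 in the mural cells, a difference of 0.02 ± 0.18 (adjusted p = 0.947). *Lats2* was the higher of the pair in each library, by a ratio of 1.84, 2.27 and 1.51 in the fragments and 2.36, 2.26 and 3.88 in the mural cells. The ratios overlapped between the groups (exact two-sided permutation test of the log2 ratios, p = 0.2). A pseudogene, RP24-92H14.2, overlaps *Lats2* on the other strand and was listed at 19.5, 7.28 and 7.16 in the fragments and at 41.8, 0 and 0 in the mural cells, and *Xpo4*, a nuclear transport gene on the same strand, overlaps it at 10.8 to 19.2.

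The CCN targets went opposite ways. *Ctgf* (ENSMUSG00000019997, chr10:24315248-24318489, plus strand), a secreted regulator of matrix and adhesion and a widely used readout of YAP activity, had an FPKM of 31.9, 32.4 and 26.2 in the fragments and 45.5, 75.2 and 67.4 in the mural cells. Each mural library was above all fragment libraries, although mural library 1 was lower than mural libraries 2 and 3. The ratio of means was 2.08 and the difference was 1.01 ± 0.20 (adjusted p = 0.0122). Without fragments 3 the difference was 0.91 and was no longer called (adjusted p = 0.0565). A noncoding RNA, Gm15270, overlaps *Ctgf* on the other strand at an FPKM of 0.793 to 4.74.

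*Cyr61* (ENSMUSG00000028195, chr3:145309935-145312949, minus strand), its relative in the CCN family and known as an immediate early gene as well as a YAP target, had an FPKM of 126, 80.4 and 80.5 in the fragments and 18.2, 37.5 and 32.6 in the mural cells. Fragment library 1 stood above the other fragments, but the highest mural library was still below the lowest fragment library. The ratio of means was 0.308 and the difference was -1.69 ± 0.29 (adjusted p = 0.00633), and it stayed called under all 13 alternatives, between -1.89 and -1.39. It was the most abundant member in the fragments and the seventh of 9 in the mural cells. Set against each other within a library, *Ctgf* was at 0.253, 0.403 and 0.325 times the FPKM of *Cyr61* in the fragments and at 2.50, 2.01 and 2.07 times in the mural cells. This ratio was looked at after the values were seen and is given without a test.

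*Ankrd1* (ENSMUSG00000024803, chr19:36186455-36194334, minus strand), an ankyrin repeat gene of stretched muscle that is often used as a YAP readout, was at the limit of detection. It was listed at 0.140, 0.151 and 0 FPKM in the fragments, which is 1, 1 and 0 sequenced fragments, and at 0 in each mural library. A count of 0 allows up to 3 fragments, which in the mural libraries corresponds to an FPKM of 1.08, 2.57 and 2.43, so a low level there was not detectable at this depth. No fold is given. These limits cover counting error only.

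The order of the levels also differed between the groups. FPKM is per length of transcript, so genes can be set side by side. In the mural cells the means ran from *Wwtr1* (85.4 ± 6.1, SD, n = 3) through *Tead2* (73.5 ± 10.6), *Lats2* (66.7 ± 6.4), *Yap1* (66.7 ± 13.0) and *Ctgf* (62.7 ± 15.4), and each of these overlapped its neighbour. *Tead1* (38.0 ± 3.2) stood below them, overlapping *Cyr61* (29.4 ± 10.02), which overlapped *Tead3* (18.6 ± 2.8), and *Tead4* (8.11 ± 3.18) was last and apart. In the fragments *Cyr61* (95.7 ± 26.3) and *Wwtr1* (72.1 ± 8.9) came first, each apart from the next. *Yap1* (53.2 ± 2.6), *Lats2* (44.6 ± 8.4) and *Tead2* (37.7 ± 3.7) followed and overlapped in turn, then *Ctgf* (30.2 ± 3.5) and *Tead1* (23.0 ± 5.0), which overlapped, and then *Tead4* (10.2 ± 2.8) and *Tead3* (4.23 ± 1.15), each apart.

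The rest of the pathway was described through 4 lists, chosen with earlier results of these data known. Over all genes tested, 9.34% were called higher and 13.0% lower. With a ratio above 2 or under 0.5 as well, these were 6.43% and 10.1%. Upstream, the list of 21 Hippo kinases, scaffolds and upstream receptors was all tested, and 17 were not called, with a median difference of -0.03 on the log2(FPKM + 1) scale. *Frmd6*, a FERM protein upstream of the kinases, had 24.3, 23.3 and 19.1 FPKM in the fragments and 52.7, 56.2 and 41.3 in the mural cells (difference 1.13 ± 0.17, adjusted p = 0.00308). It was the gene of this list with a ratio above 2. The 3 others called, named after their values were seen, were *Stk3*, which encodes the kinase MST2, at 0.54, and the kinase gene *Taok3* and the atypical cadherin gene *Fat4* at -0.67 and -0.59. With the replicate number as a block, *Stk3* and *Fat4* lost their calls (adjusted p = 0.0574 and 0.0729). Leaving out each library in turn left 1 or 2 genes of the list higher and 0 or 1 lower. *Wwc1*, which encodes KIBRA and is also named after its values were seen, had the largest SE of the list, at 4.81, 0.931 and 22.5 in the mural cells, highest in the library with the highest astrocyte markers.

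Among 15 partners and inhibitors of YAP, TAZ and TEAD, 13 were tested, and 1 of these, *Vgll3*, passed the minimum FPKM only through the mural libraries. Of the other 12, 6 were higher, none were lower at an adjusted p under 0.05 and 6 were not called, with a median of 0.45. The share called higher over all genes tested was 9.34%. All 3 genes of the Ajuba family of LIM proteins, which bind and restrain LATS kinases, were higher by more than 2-fold. *Ajuba* rose from 12.2, 13.3 and 10.5 FPKM in the fragments to 52.0, 61.1 and 47.8 in the mural cells, a ratio of 4.47. *Limd1* rose from 13.4, 14.4 and 15.3 to 37.3, 54.3 and 37.1, and *Wtip* from 17.6, 14.4 and 13.9 to 33.4, 32.8 and 39.4. In each of these the groups were far apart (adjusted p = 0.000216, 0.00139 and 0.00219). *Vgll3*, a cofactor that binds TEAD in place of YAP, was at 0.491, 0.682 and 0.757 in the fragments and at 3.07, 4.30 and 9.76 in the mural cells. Since it passed the minimum FPKM only where it was high, its difference is given as values without a test. Besides the Ajuba family, the genes called were named after their values were seen. They were the angiomotin genes *Amotl1* and *Amotl2*, whose products bind YAP, at 0.88 and 0.93, and the 14-3-3 gene *Ywhaz* at 0.57. *Vgll1* and *Vgll2* were listed at 0 in all libraries.

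Of 18 further target genes of YAP and TEAD, 17 were tested, 9 were higher, 1 was lower and 7 were not called, with a median of 0.58. The shares over all genes tested were 9.34% higher, or 6.43% by more than 2-fold, and 13.0% lower. By more than 2-fold, 7 were higher, and the largest difference was that of *Ccdc80*, a secreted matrix protein gene, at 18.6, 15.3 and 12.2 FPKM in the fragments and 104, 213 and 148 in the mural cells (3.21 ± 0.27, adjusted p = 0.000296). *Arhgef17*, a guanine nucleotide exchange factor gene, was at 14.5, 12.8 and 9.44 against 73.1, 84.5 and 76.1. *Fjx1* was at 8.85, 10.2 and 5.99 against 43.3, 39.8 and 54.8. In each of these the lowest mural library was several times the highest fragment library. The receptor tyrosine kinase gene *Axl* was at 63.8, 41.9 and 69.0 against 216, 302 and 253, a ratio of 4.41 (adjusted p = 0.000574). *Rbms3*, *Crim1* and *Tgfb2*, which encode an RNA-binding protein, a BMP-binding membrane protein and a TGF-β ligand, had ratios of 3.31, 2.24 and 2.08 (adjusted p = 0.0102, 0.00321 and 0.0117). The call of *Tgfb2* was lost without fragments 2 (adjusted p = 0.0518). *Ccdc80*, *Arhgef17*, *Axl* and *Rbms3* are in the paper's catalogue of mural cell-enriched genes, as are *Wtip*, *Vgll3* and *Nov* of the other lists. *Fjx1*, *Crim1* and *Tgfb2* are not. That catalogue drew in part on these same libraries. *Igfbp3*, which encodes a secreted carrier of insulin-like growth factors, was lower in mural cells, at 61.2, 61.1 and 65.1 in the fragments and 11.6, 15.7 and 16.0 in the mural cells (-2.05 ± 0.16, adjusted p = 0.000212). *Fez2* overlaps *Crim1* on the other strand at an FPKM of 36.6 to 56.0. *Amotl2* and *Ptpn14* are on this list and on that of the partners, and each was counted in both.

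In the rest of the CCN family, *Nov*, which encodes CCN3, was higher in mural cells, at 1.39, 1.42 and 1.69 in the fragments and 8.03, 5.54 and 11.9 in the mural cells (ratio 5.65, difference 1.87 ± 0.31, adjusted p = 0.00521). *Wisp1*, which encodes CCN4, was at 1.57, 0.963 and 1.13 against 1.5, 6.59 and 4.93 and was not called (adjusted p = 0.115). *Wisp2* and *Wisp3* were too low to be tested. *Cyr61* was the only one of the 4 CCN genes tested, *Ctgf*, *Cyr61*, *Nov* and *Wisp1*, with a lower mean in the mural cells.

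**Figure D3:**
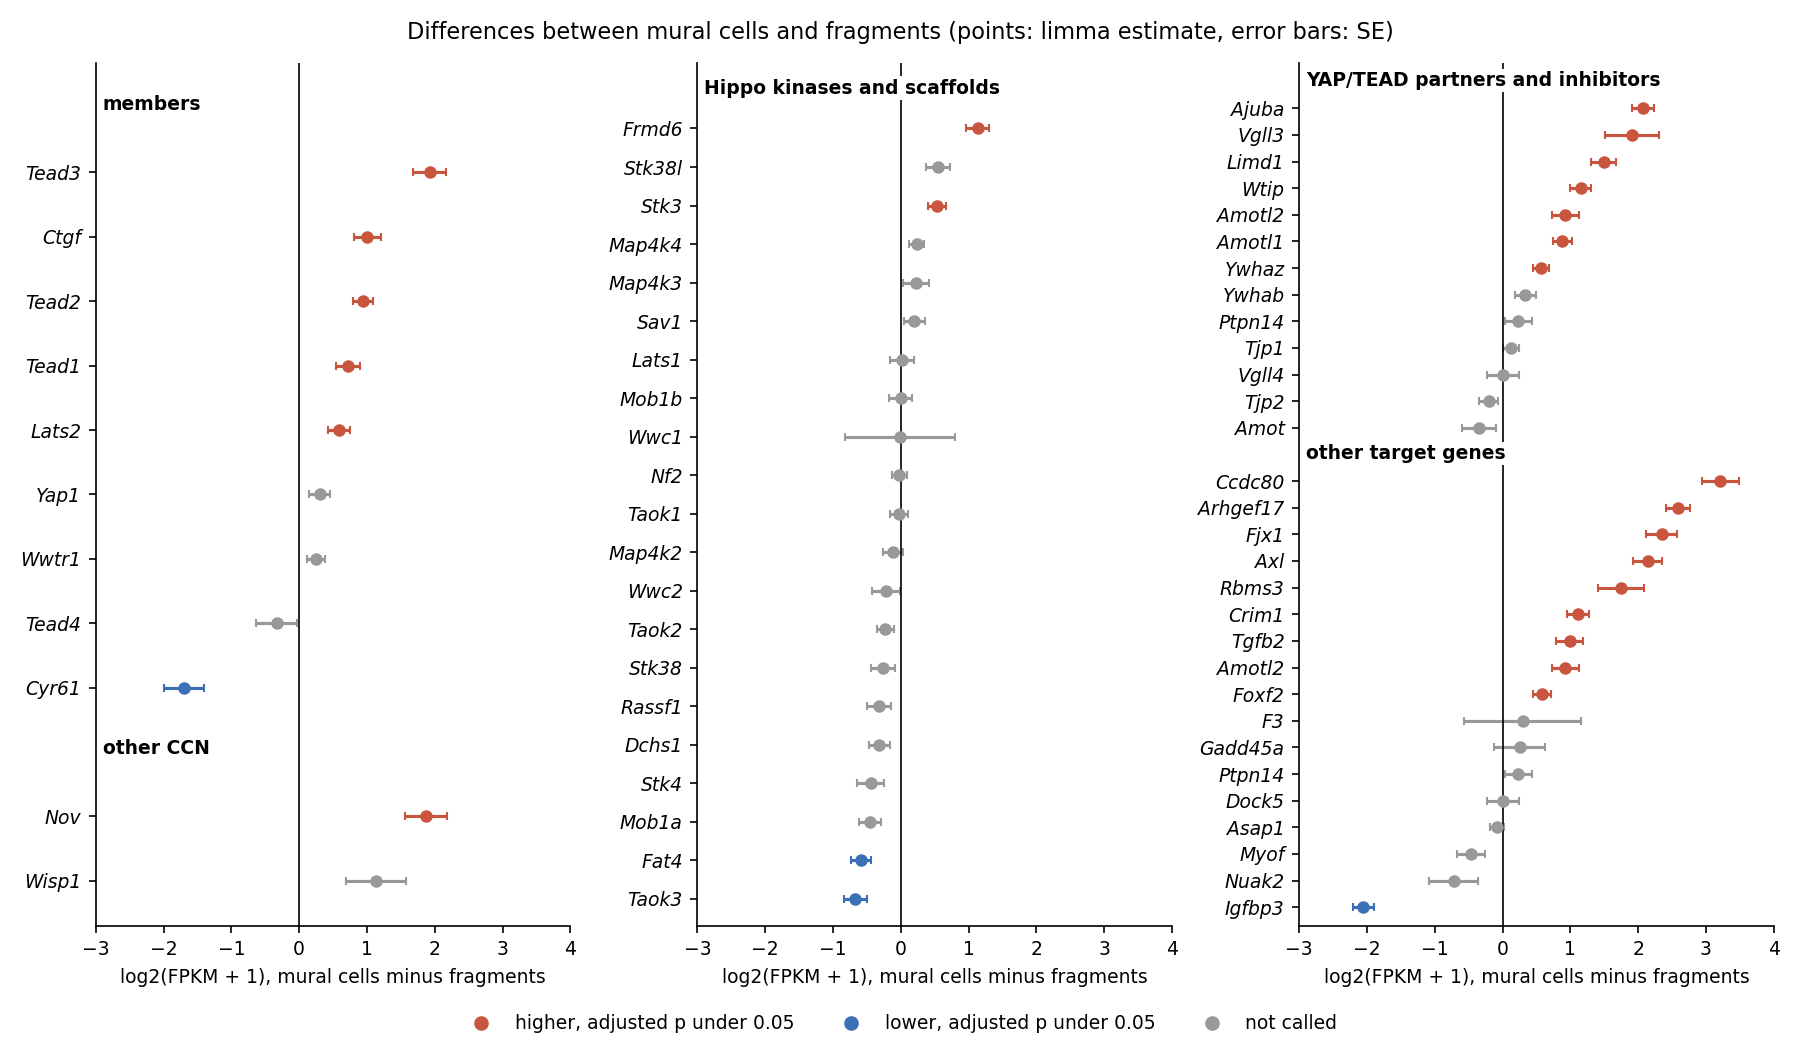
Difference between mural cells and fragments on the log2(FPKM + 1) scale for the tested members and the genes of 4 pathway lists. Points are the limma estimates and error bars the SE. Red and blue mark genes called higher and lower at an adjusted p under 0.05, and grey marks genes not called. *Vgll3* is drawn in red but is not counted as called, since it passed the minimum FPKM only through the mural libraries. The Hippo kinases and scaffolds lie around 0 with a median of -0.03, while the target genes have a median of 0.58 and the partners one of 0.45 without *Vgll3*, and *Cyr61* (-1.69) and *Igfbp3* (-2.05) lie far to the left.

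Because *Cyr61* is also an immediate early gene, a list of 21 early response genes was set beside it. Of these, 18 were lower in mural cells, all 18 by more than 2-fold, none were higher at an adjusted p under 0.05, and the median was -2.53. The shares over all genes tested were 13.0% lower and 10.1% lower by more than 2-fold. The differences ran from -5.08 for *Fosb*, an AP-1 subunit gene, at 150, 132 and 167 FPKM in the fragments and 4.60, 3.03 and 2.86 in the mural cells, to 0.09 for *Myc* (adjusted p = 0.924). The summed FPKM of the list was 3095 to 3764 in the fragments and 396 to 525 in the mural cells. *Cyr61* lay inside the range of these genes, which also holds the median of all genes tested (-0.12). *Ctgf* (1.01) lay above all of the early response genes. The part of the early response genes in the difference of *Cyr61* was not tested, and neither was that of the microglia, EC and fibroblast markers, which moved with the groups as given above. Without mural library 3, where the astrocyte markers were highest, *Tead2*, *Tead3* and *Ctgf* were still called higher (limma, adjusted p = 0.0143, 0.00560 and 0.0345). *Cyr61* was still called lower (0.0136). *Tead1* and *Lats2* were no longer called (0.0593 and 0.0961), so that 3 of the 5 higher members remained. Both of these calls were also lost when other libraries were left out, as given above.

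**Figure D4:**
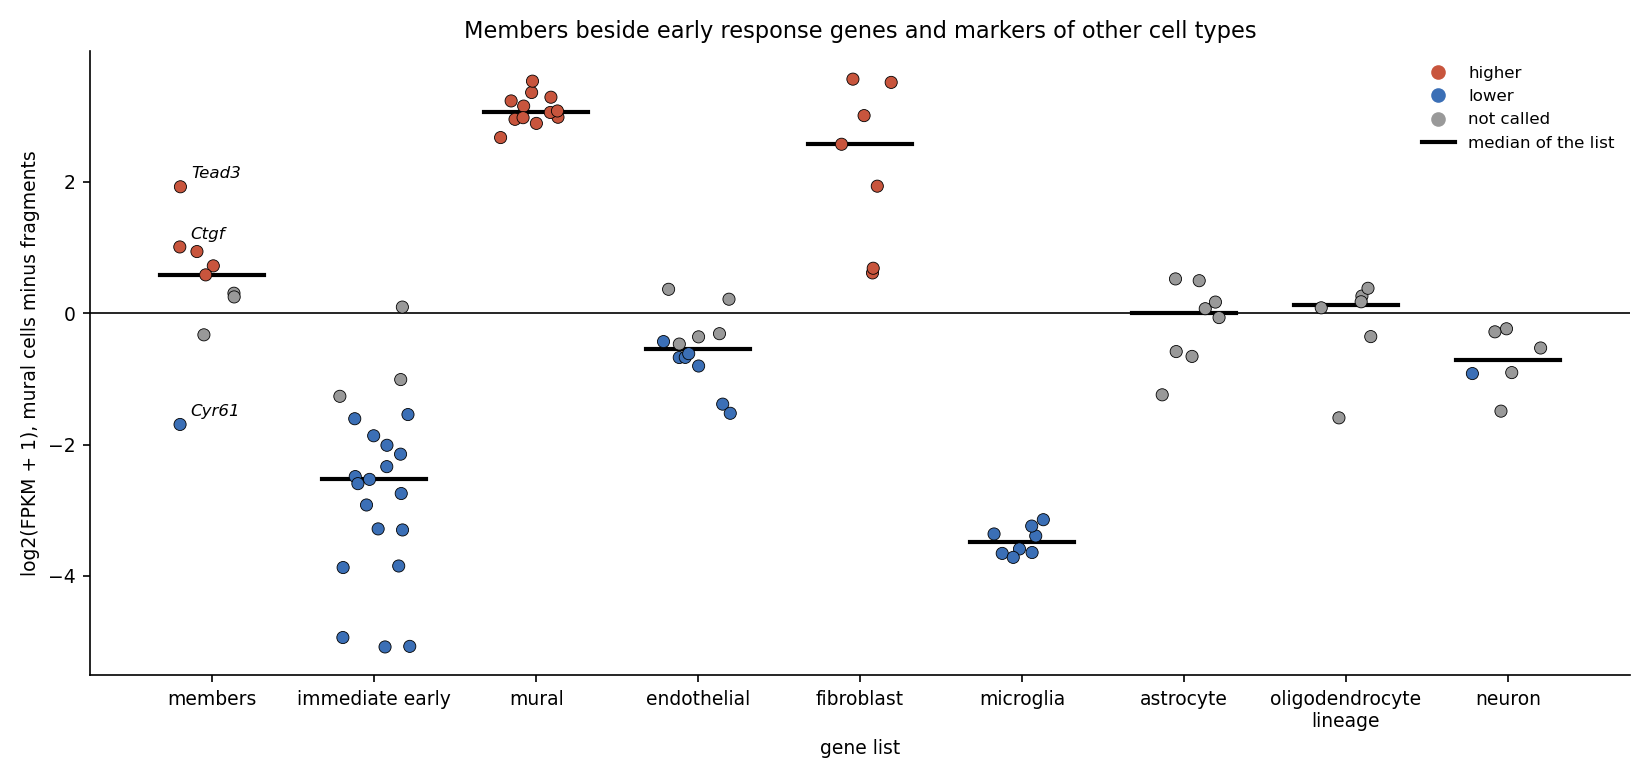
Difference between mural cells and fragments on the log2(FPKM + 1) scale for each tested gene of the members, the early response genes and the markers of 7 cell types. Red, blue and grey mark genes called higher, called lower and not called at an adjusted p of 0.05, and the black line is the median of each list. The early response genes lie between -5.08 and 0.09 with 18 of 21 called lower, the 12 mural cell markers between 2.67 and 3.53, and the members between -1.69 and 1.92.

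The genes with the most similar pattern over the 6 libraries were named for *Yap1*, *Ctgf* and *Cyr61*, by the smallest root mean square (RMS) difference of log2(FPKM + 1) after each gene was centred on its mean. For *Yap1* they included *Angptl4* and *Flywch1*, with RMS differences of 0.056 and 0.065. *Angptl4*, a secreted inhibitor of lipoprotein lipase, was at 36.6, 36.7 and 36.7 in the fragments and 53.5, 38.8 and 48.1 in the mural cells. For *Ctgf* they were *Mn1*, *Nkain4* and *Zscan2* (0.029, 0.083 and 0.096), with ratios of mean FPKM of 2.15, 2.10 and 2.09. For *Cyr61* they were *Gm15512*, *Mir17hg* and *Irak2* (0.195, 0.229 and 0.229). Their ratios of mean FPKM were 0.154, 0.209 and 0.333, against 0.308 for *Cyr61*. *Gm15512* and *Mir17hg* were at an FPKM of 0.274 to 1.31 in the mural libraries. Closeness on the log2(FPKM + 1) scale is thus not the same as an equal ratio. *Ankrd1* was not tested and was given no such genes.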

How the data were processed

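RNA-seq was measured in 3 mural cell and 3 fragment libraries, grouped by their titles. The libraries were made from total RNA depleted of rRNA with a stranded low input kit and sequenced in a single lane. The authors deposited FPKM values, 1 file per library, after alignment to NCBIM37 with TopHat2 2.0.4, removal of duplicated reads with Picard 1.92 and quantification with Cufflinks 2.2.1 (tools per the labels); how Cufflinks scaled the libraries and whether it used strand are not given in the sources used here.

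From these values, genes that reached an FPKM of 1 in 3 or more libraries were tested on the log2(FPKM + 1) scale with the limma package (version 3.58.1, R 4.3.3), with the prior variance trended on mean level and p-values adjusted by Benjamini-Hochberg. Python 3.11.15, pandas 2.3.3 and NumPy 2.4.6 were used for the rest, and the fit was tested on simulated data. FPKM are not counts, so no count test was run. Among low values, 98.2 to 98.8% per library fell within 0.05 of a whole number of sequenced fragments, which gave approximate depths. Within-library ratios were compared with an exact two-sided permutation test. The members and lists were chosen with earlier results of these data known. Genes were named by rule: all members, *Lats1*, pathway genes called with a ratio above 2 or under 0.5, the ends of the range of the early response and marker lists, *Pdgfrb*, *Cspg4* and *Pecam1*, and the 3 genes closest in pattern, of which 1 is not reported here. The oligodendrocyte lineage list had no gene called, with 6 tested, and the neuron list had 1 of 6 called lower; the marker values not given in the text are in the plot of the lists.

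As alternatives, the pseudocount was set to 0.1, libraries were rescaled by median ratios or quantiles, the replicate block was added, the intensity trend was dropped, the filter was removed or raised to an FPKM of 5, and each library was left out; for the within-library ratios, a pseudocount of 1 and leaving out each library.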

Additional observations from a re-analysis of the deposited data

How the results depend on the processing

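The members and the pathway genes with a ratio above 2 or under 0.5 were refitted under each alternative, and none that was called changed sign where it could be fitted; the other genes were followed only through the counts of their lists. The number of members called lower was 1 throughout, and *Tead2*, *Tead3* and *Cyr61* kept their calls in all 13 alternatives, with an adjusted p of 0.00325 to 0.0240, 0.000811 to 0.00781 and 0.00307 to 0.0235. The number of members called higher fell from 5 to 3 without the intensity trend and ranged from 2 to 5 with a library left out, as *Lats2*, *Tead1* and, once, *Ctgf* lost their calls (adjusted p up to 0.140, 0.0968 and 0.0565). *Lats2* was also lost with no filter, with quantile normalization and under the replicate block. Over all genes, leaving out a library gave 842 to 1316 higher and 719 to 2127 lower, against 1383 and 1927. Without a fragment library the counts were 842 to 884 higher and 719 to 804 lower, and without a mural library 1232 to 1316 and 1797 to 2127; the cause was not tested. For the Hippo kinases and scaffolds it gave 1 to 2 higher and 0 to 1 lower, and for the other CCN genes 1 to 2 higher. The kinases called lower fell from 2 to 1 without the intensity trend. Quantile normalization raised the other CCN genes called higher from 1 to 2 and moved the median of all genes from -0.12 to 0.01, a shift to which each difference above is relative. The cause of the changes without the trend and under quantile normalization was not tested.

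With the replicate block, 4 members were higher (*Lats2* at an adjusted p of 0.0770) and 1 was lower, and the kinases and scaffolds called went to 1 higher and 1 lower, as *Stk3* and *Fat4* lost their calls (0.0574 and 0.0729); the block ended no other call among the members. Libraries of the same number correlated by 0.0818, 0.0203 and 0.0454 in their deviations from the group means. Each mural library correlated best with the fragment library of its own number. The labels do not tie numbers to animals, and the block was kept as an alternative to the unpaired main fit. *Vgll3* could not be fitted in 4 alternatives, where it fell under the minimum FPKM.

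Depth limits the low genes most: *Ankrd1* rests on at most 1 fragment per library and *Tead4* on 14 to 32 in the mural cells. Groups of 3 cannot give an exact p under 0.1. The fragments contain mural cells and the mural libraries hold EC transcripts, so the differences are between mixtures, and the share of each cell type in them was not tested. Preparation also differed with the group and cannot be told apart from cell type.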
